A study of Homo sapiens with 4 samples.

Results

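The genes of the AP-1 family encode the JUN and FOS transcription factors, and the data described here are the ATF3 peaks around 8 of them, namely JUN, JUNB, JUND, FOS, FOSB, FOSL1, FOSL2 and JDP2. Peaks of all 4 libraries that shared at least 1 bp were merged, and a region was assigned to a gene if it overlapped the gene's hg19 span extended by 20 kb on each side. This gave 41 regions of 44826 in the genome. Within these windows the regions were taken by position and not by signal. The genes themselves were chosen with earlier results of these data known. ATF3 was profiled by CUT&Tag, in which an antibody guides a transposase that cuts and tags nearby DNA, in SW480, an established colorectal adenocarcinoma line. About 100000 cells went into each library. The cystine-restricted cells spent 24 h in medium short of cystine, the imported form of cysteine, and the full-medium cells 24 h in complete medium, with 2 libraries per medium. Each library was made with the same ATF3 antibody, no library without it was used here, and no genetic change is named for either group.

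AP-1 is a dimer of basic leucine zipper (bZIP) proteins. JUN proteins pair with one another or with FOS proteins, whereas FOS proteins need a JUN partner, and the dimers bind the AP-1 site and, depending on the partners, the cyclic AMP response element (CRE). ATF3 is a bZIP protein of the same superfamily that dimerises with JUN proteins and is known mainly as a stress-induced repressor or activator. Several of these genes are immediate early genes, switched on within minutes by growth factors and stress kinases, and in colorectal epithelium they act downstream of the RAS and JNK pathways. The comparison asks whether ATF3 signal at the AP-1 family genes, among them those of its JUN partners, differed with the cystine supply. These libraries report occupancy and not expression, so neither the level of the AP-1 genes nor the identity of the cells by marker expression was analysed here.

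The RefSeq promoters of the genes (GRCh38.p14, 250 bases before to 50 after the annotated start) were read because ATF3 regions lay on or beside most of these starts. FOSL1 was not matched in that table. The other 7 genes had 9 promoters, since JDP2 has several starts. Stretches around the motif matches are shown 5′ to 3′ on the gene's strand, with the matches in capitals and 20 bases on each side, and the JUNB promoter, which had no match, is shown whole for comparison.
JUN, chr1:58784087-58784134, minus strand: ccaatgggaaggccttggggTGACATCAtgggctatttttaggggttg
JUNB, chr19:12791236-12791535, plus strand: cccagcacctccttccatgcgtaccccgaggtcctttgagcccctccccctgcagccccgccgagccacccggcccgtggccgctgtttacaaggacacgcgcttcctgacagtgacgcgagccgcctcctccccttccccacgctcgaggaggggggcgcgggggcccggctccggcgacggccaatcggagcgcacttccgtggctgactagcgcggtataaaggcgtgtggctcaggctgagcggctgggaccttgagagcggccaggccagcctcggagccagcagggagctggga
JUND, chr19:18281684-18281842, minus strand: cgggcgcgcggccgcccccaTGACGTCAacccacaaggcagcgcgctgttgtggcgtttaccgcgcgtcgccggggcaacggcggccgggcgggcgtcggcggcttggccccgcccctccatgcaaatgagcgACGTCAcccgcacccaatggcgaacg
FOS, chr14:75278744-75278789, plus strand: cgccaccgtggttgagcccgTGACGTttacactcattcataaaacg
FOSB, chr19:45467916-45467961, plus strand: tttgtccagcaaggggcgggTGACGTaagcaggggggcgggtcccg
FOSL2, chr2:28392772-28392888, plus strand: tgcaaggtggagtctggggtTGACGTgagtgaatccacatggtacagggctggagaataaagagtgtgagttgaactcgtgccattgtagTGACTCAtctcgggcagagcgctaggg
JDP2, chr14:75427905-75428033, plus strand: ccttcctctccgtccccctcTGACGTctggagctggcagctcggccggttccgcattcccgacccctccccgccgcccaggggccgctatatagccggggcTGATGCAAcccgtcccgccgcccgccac

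The motifs were searched on both strands. The JUN promoter held TGACATCA, an element known to bind JUN and ATF2 dimers in this promoter, from 67 to 60 bases upstream of the start, and 2.61% of all 35116 promoters held these letters. The full CRE, TGACGTCA, occurred from 200 to 193 bases upstream in JUND, against 1.85% of all promoters. A TGAGTCA site, written TGACTCA on the strand shown, lay 4 to 10 bases downstream of the FOSL2 start, against 4.95% of all promoters. The JDP2 promoter shown held TGATGCAA, a match to the ATF4-C/EBP element TGANGCAA, from 16 to 9 bases upstream, and 3.22% of all promoters held that element. The 6-base core of the CRE, TGACGT, which overlaps the full CRE and was added to the search after the promoters had been read, occurred in 5 of the 9 promoters, those of JUND, FOS, FOSB, FOSL2 and JDP2, against 7.98% of all. In FOS it lay from 64 to 59 bases upstream and in FOSB from 60 to 55 bases upstream. No CArG box, the serum response element, was matched in these windows, and 1.29% of all promoters held one. A match describes the letters and is not evidence of a bound site, and these promoters and the hg19 peaks are on different builds, so their positions cannot be overlaid base by base.

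Signal is given as the relative pileup, the number of tags stacked at a peak's summit divided by the library's genome background. Both were recovered from the deposited fold enrichments and p-values. In the cystine-restricted libraries the genome background was 1.30 (replicate 1) and 1.08 (replicate 2), and in the full-medium libraries 1.11 (replicate 1) and 1.32 (replicate 2). Pairs of values below keep that replicate order. The background is proportional to the tags kept. The lowest pileup listed in any library was 6 or 7 tags. Pileups at the AP-1 gene regions ran from 8 to 225 tags, with exact Poisson 95% intervals of 3.5 to 15.8 and 196.6 to 256.4, which cover counting error only. The labels do not say whether the libraries of a medium came from separate cultures, so the spread between them may be technical.

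ATF3 peaks were found at 7 of the 8 genes in both media, and the exception was JUNB. Of the 41 regions, 16 had a peak in all 4 libraries (39.0%, against 23.0% of all regions). A further 4 were gained: both libraries under cystine restriction listed a peak and no full-medium one did (9.76%, against 12.7% of all regions). None was lost, the reverse pattern, which held for 0.386% of all regions. Of the remaining 21, 11 were listed in a single library (26.8%, against 46.4% of all regions). The other 10 were in 2 or 3 libraries in mixed patterns (24.4%, against 17.5% of all regions). Under cystine restriction the windows held 37 and 27 peaks, against 23 and 24 in full medium. The means were 32.0 ± 7.07 and 23.5 ± 0.71 peaks (SD, n = 2 each), a ratio of 1.36, against 1.73 for all peaks. Every cystine-restricted count was above every full-medium count, but the excess rested largely on cystine-restricted replicate 1: without it the ratio was 1.15. With 2 libraries against 2, a two-sided exact permutation test cannot give a p below 0.33, and none was run on the members.

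**Figure D1:**
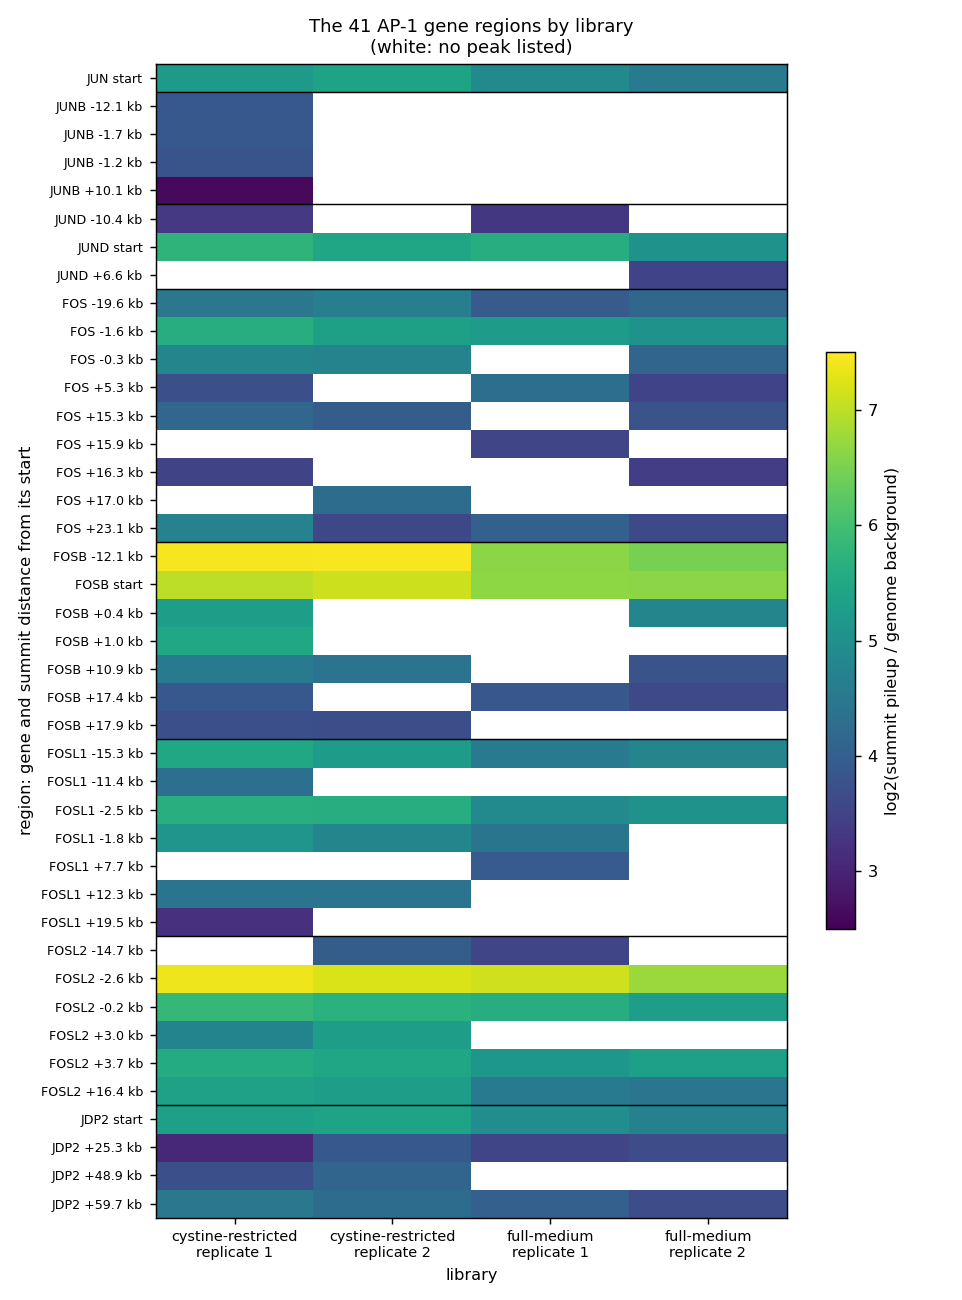
Each row is one of the 41 AP-1 gene regions, named by the distance of its highest summit from the gene start, and each column a library; colour gives the log2 of summit pileup over genome background, and white means that no peak was listed. The 4 JUNB regions are filled for cystine-restricted replicate 1 alone, while 16 rows are filled in all 4 libraries.

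Among the JUN genes, JUN and JUND each had a region over the start in all 4 libraries and JUNB had none. JUN, the main transactivating partner of the family, had a single region in its window, on chromosome 1 from 59249455 to 59250503 (hg19), 1049 bp wide, which covers the gene start at 59249785 and extends into the transcribed part. Its relative pileup was 36.99 and 42.44 in the cystine-restricted libraries, against 29.82 and 23.52 in the full-medium libraries. The media did not overlap. On the log2 scale the difference was 0.58 (SE 0.23), with an adjusted p of 0.036 by limma with Benjamini-Hochberg adjustment over all 10331 regions present in 4 libraries, so the JUN region rose. The difference stood at percentile 55.1 of all regions, near their median, and the call was lost in 3 of the 4 fits that left out 1 library (adjusted p = 0.11 to 0.24, limma). Relative to the start, counted positive downstream, the summits lay at 17 and −183 bp under cystine restriction and at 35 and −145 bp in full medium, so each medium had a summit on either side of it.

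JUND, the JUN gene that is expressed most constitutively, had its main region on chromosome 19 from 18392175 to 18393003, over the start at 18392466. The relative pileup was 53.94 and 43.36 under cystine restriction and 48.80 and 33.38 in full medium. These values overlap between the media, since full-medium replicate 1 stood above cystine-restricted replicate 2. The log2 difference was 0.26 (SE 0.21, adjusted p = 0.30, limma), so no change passed the test. Its summits agreed within 29 bp and lay 152 to 181 bp upstream of the hg19 start. The other regions of the JUND window were weak, one 10.4 kb upstream with 10.02 in cystine-restricted replicate 1 and 9.94 in full-medium replicate 1, and one 6.6 kb downstream with 11.38 in full-medium replicate 2 alone.

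JUNB encodes a weaker transactivator that can oppose JUN. Its window held 4 regions, each listed in cystine-restricted replicate 1 and in no other library, a pattern shared by 21.8% of all regions. The nearest to the start ended 1073 bp away, on chromosome 19 from 12901082 to 12901237, with a relative pileup of 13.87 (18 tags) and the authors' −log10 q of 5.16. The others had 14.64 at 12.1 and 1.7 kb upstream and 6.16 (8 tags) at 10.1 kb downstream. No peak was therefore listed over the JUNB start in any library, so a signal there, if any, did not meet the caller's criteria. HOOK2, PRDX2, THSD8 and RNASEH2A lie within 20 kb of JUNB in the GRCh38.p14 annotation, and which gene a region serves was not analysed here.

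Among the FOS genes, FOSB and FOSL2 carried the highest ATF3 signal of the family. The highest mean was at FOSL2, which encodes FRA2, a FOS protein without the strong activation domain of FOS. The region on chromosome 2 from 28612477 to 28614087, 1611 bp wide, had a relative pileup of 165.66 and 149.45 under cystine restriction and 140.99 and 106.97 in full medium. It stood at percentile 98.6 of the regions in 4 libraries by mean signal, and its 4 summits fell 2589 to 2591 bp upstream of the start, within 2 bp. The media did not overlap, and 72.8% of all regions in 4 libraries likewise had every cystine-restricted value higher. The log2 difference stood at percentile 31.5 of those regions, below their median. It was 0.36 (SE 0.15, adjusted p = 0.046, limma), and 43.2% of those regions were likewise called higher. The call at this FOSL2 region was not stable: the difference was 0.16 without full-medium replicate 2 and 0.56 without full-medium replicate 1. Its summits held 215 and 162 tags under cystine restriction and 156 and 141 tags in full medium. Outside the 8 windows, the values most like these over the 4 libraries were found on chromosome 19 (44204670 to 44205995), with a root mean square difference of 0.04 on the log2 scale, and then on chromosome 7 (75929336 to 75930263), with 0.06.

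FOSL2 had 5 other regions. One ended 16 bp upstream of the start, on chromosome 2 from 28615313 to 28615763, with 57.02 and 51.66 under cystine restriction and 48.80 and 38.69 in full medium, a log2 difference of 0.32 (SE 0.20, adjusted p = 0.18, limma). Inside the gene, the region 16.4 kb downstream of the start rose, with 40.84 and 39.67 under cystine restriction against 23.50 and 22 in full medium, a log2 difference of 0.82 (SE 0.23, adjusted p = 0.0043, limma). Every cystine-restricted value was above every full-medium value here, as at 72.8% of all regions in 4 libraries. Of those regions, 43.2% were called higher, and this difference stood at percentile 78.2. A neighbouring region 3.7 kb downstream had 47.77 and 44.28 against 35.25 and 40.21, and its log2 difference of 0.29 (SE 0.21, adjusted p = 0.24, limma) did not pass the test. Its summits agreed within 1 bp in the 4 libraries. The FOSL2 region 3.0 kb downstream, on chromosome 2 from 28618523 to 28618919, was gained, with 26.97 and 38.75 under cystine restriction and no peak in full medium. It had the highest relative pileup of the 4 gained regions. Over the local background, that of the 10 kb around it, its fold was only 2.41 and 3.51. The −log10 q in cystine-restricted replicate 1 was 3.61. The last FOSL2 region, 14.7 kb upstream, was listed in cystine-restricted replicate 2 with 15.68 and in full-medium replicate 1 with 11.75.

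At FOSB, whose truncated product accumulates on repeated stimulation in brain, both leading regions rose. The one with the larger difference lay 12.1 kb upstream, on chromosome 19 from 45958745 to 45959807, with 173.37 and 175.28 under cystine restriction against 99.41 and 89.52 in full medium. It had the largest difference of the 16 regions, 0.89 on the log2 scale (SE 0.15, adjusted p = 6.5e-06, limma), or 1.85-fold, and its 4 summits agreed within 10 bp. The region over the start, from 45970416 to 45971346, had 127.91 and 138.38 against 100.32 and 98.62, a log2 difference of 0.42 (SE 0.15, adjusted p = 0.022, limma). In both regions every cystine-restricted library was above every full-medium library, as at 72.8% of all regions in 4 libraries. Of those regions, 43.2% were called higher. The difference of the upstream region stood at percentile 82.4 of all regions and that of the start region at percentile 37.8, below their median. The upstream region was the higher one under cystine restriction, and the start region in full medium. The 10 kb around the upstream summit held 1196 and 931 tags under cystine restriction and 697 and 833 tags in full medium. Relative to the genome background these were 13.82 and 12.88 times, against 9.45 and 9.48 times. Inside FOSB, 2 short regions had 39.30 and 44.69 in cystine-restricted replicate 1. Their folds over their own local backgrounds, which correspond to 1176 and 1165 tags in 10 kb, were 2.79 and 3.19. The more distal of them was listed in that library alone, and the other also in full-medium replicate 2, with 27.31.

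The other regions of the FOSB window were weaker. The region 10.9 kb downstream had 23.89 and 21.22 under cystine restriction and 13.66 in full-medium replicate 2, with no peak in full-medium replicate 1. The region 17.9 kb downstream was gained at a low level, with 13.10 and 12.92, and one 17.4 kb downstream had 14.64 in cystine-restricted replicate 1 and 14.46 and 12.14 in full medium. ERCC1, a DNA repair gene, and RTN2 lie within 20 kb of FOSB in the GRCh38.p14 annotation.

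FOS itself, the founding immediate early gene, had 9 regions, the most of the 8 windows. Of these, 3 were in all libraries and could be tested. None of the 3 passed, against 43.2% of all regions in 4 libraries called higher. The differences at the 3 stood at percentiles 28.8 to 45.9 of all regions. No region covered the FOS start. The strongest lay 1.6 kb upstream, on chromosome 14 from 75743566 to 75744635, with 49.31 and 40.59 under cystine restriction and 37.96 and 33.38 in full medium. The media did not overlap, and the log2 difference was 0.33 (SE 0.21, adjusted p = 0.19, limma). A 240 bp region nearer the start, ending 206 bp from it, had 27.74 and 26.75 under cystine restriction and 17.45 in full-medium replicate 2, with no peak in full-medium replicate 1. The 2 distal FOS regions present in all libraries were 19.6 kb upstream, with 22.35 and 24.91 against 15.36 and 18.21, and 23.1 kb downstream, with 26.20 and 11.99 against 16.27 and 12.14. Their log2 differences were 0.50 (SE 0.27, adjusted p = 0.13) and 0.34 (SE 0.31, adjusted p = 0.37) by limma, and the distal downstream region overlapped between media. Between 15.3 and 17 kb downstream, 4 small regions followed each other, none of them in all libraries and each with a relative pileup between 10.62 and 19.37. A region 5.3 kb downstream had 13.10 in cystine-restricted replicate 1, between the full-medium values of 19.88 and 11.38. It had no peak in cystine-restricted replicate 2 and was not tested.

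FOSL1 encodes FRA1, the FOS protein linked to invasion in colorectal and other carcinomas. Its 2 regions in all libraries both rose, against 43.2% of all such regions called higher. One lay 2.5 kb upstream of the start, on chromosome 11 from 65670029 to 65670954, with 50.08 and 48.89 under cystine restriction against 29.82 and 33.38 in full medium (log2 difference 0.65, SE 0.21, adjusted p = 0.012, limma). The other lay 15.3 kb upstream, from 65682669 to 65683495, with 44.69 and 37.82 against 23.50 and 27.31 (log2 difference 0.70, SE 0.23, adjusted p = 0.013, limma). In neither did the media overlap, and 72.8% of all regions in 4 libraries likewise had every cystine-restricted value higher. The 2 differences stood at percentiles 62.7 and 67.4 of all regions. Between the first of these and the start, a region 1.8 kb upstream had 34.67 and 27.68 under cystine restriction and 21.69 in full-medium replicate 1, with no peak in full-medium replicate 2. The region 12.3 kb downstream of the start, 4.0 kb past the gene end, was gained, with 21.57 and 21.22. The remaining 3 regions were each in 1 library. Cystine-restricted replicate 1 alone listed those 11.4 kb upstream, with 20.03, and 19.5 kb downstream, with 9.25, and the only region inside FOSL1 was in full-medium replicate 1 alone, with 15.36. The direction of FOSL1 is taken from general knowledge of the gene. Its window is dense with genes, and EFEMP2, CTSW, FIBP, CCDC85B, C11orf68 and DRAP1 lie within 20 kb in the GRCh38.p14 annotation, and which gene an upstream region serves was not analysed here.

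JDP2, Jun dimerization protein 2, is a repressor that pairs with JUN proteins and is a close relative of ATF3. The region over its start, on chromosome 14 from 75893952 to 75895043, rose, with 40.07 and 42.44 under cystine restriction against 30.73 and 25.79 in full medium (log2 difference 0.55, SE 0.22, adjusted p = 0.041, limma). Of all regions in 4 libraries, 43.2% were called higher. The media did not overlap, and 72.8% of those regions likewise had every cystine-restricted value higher. The difference at the JDP2 start stood at percentile 51.9 of all regions. An intragenic region 25.3 kb downstream of the start was the weakest of the 16, with 8.48 and 14.76 under cystine restriction and 11.75 and 12.90 in full medium. It was also the only one of the 16 with a mean below that of full medium, by −0.14 on the log2 scale (SE 0.31, adjusted p = 0.72, limma), and its cystine-restricted libraries lay on either side of the full-medium ones. Past the gene end, a region at 48.9 kb from the start was gained, with 13.10 and 17.53, and one at 59.7 kb had 22.35 and 19.37 against 16.27 and 12.90 (log2 difference 0.52, SE 0.28, adjusted p = 0.12, limma).

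**Figure D2:**
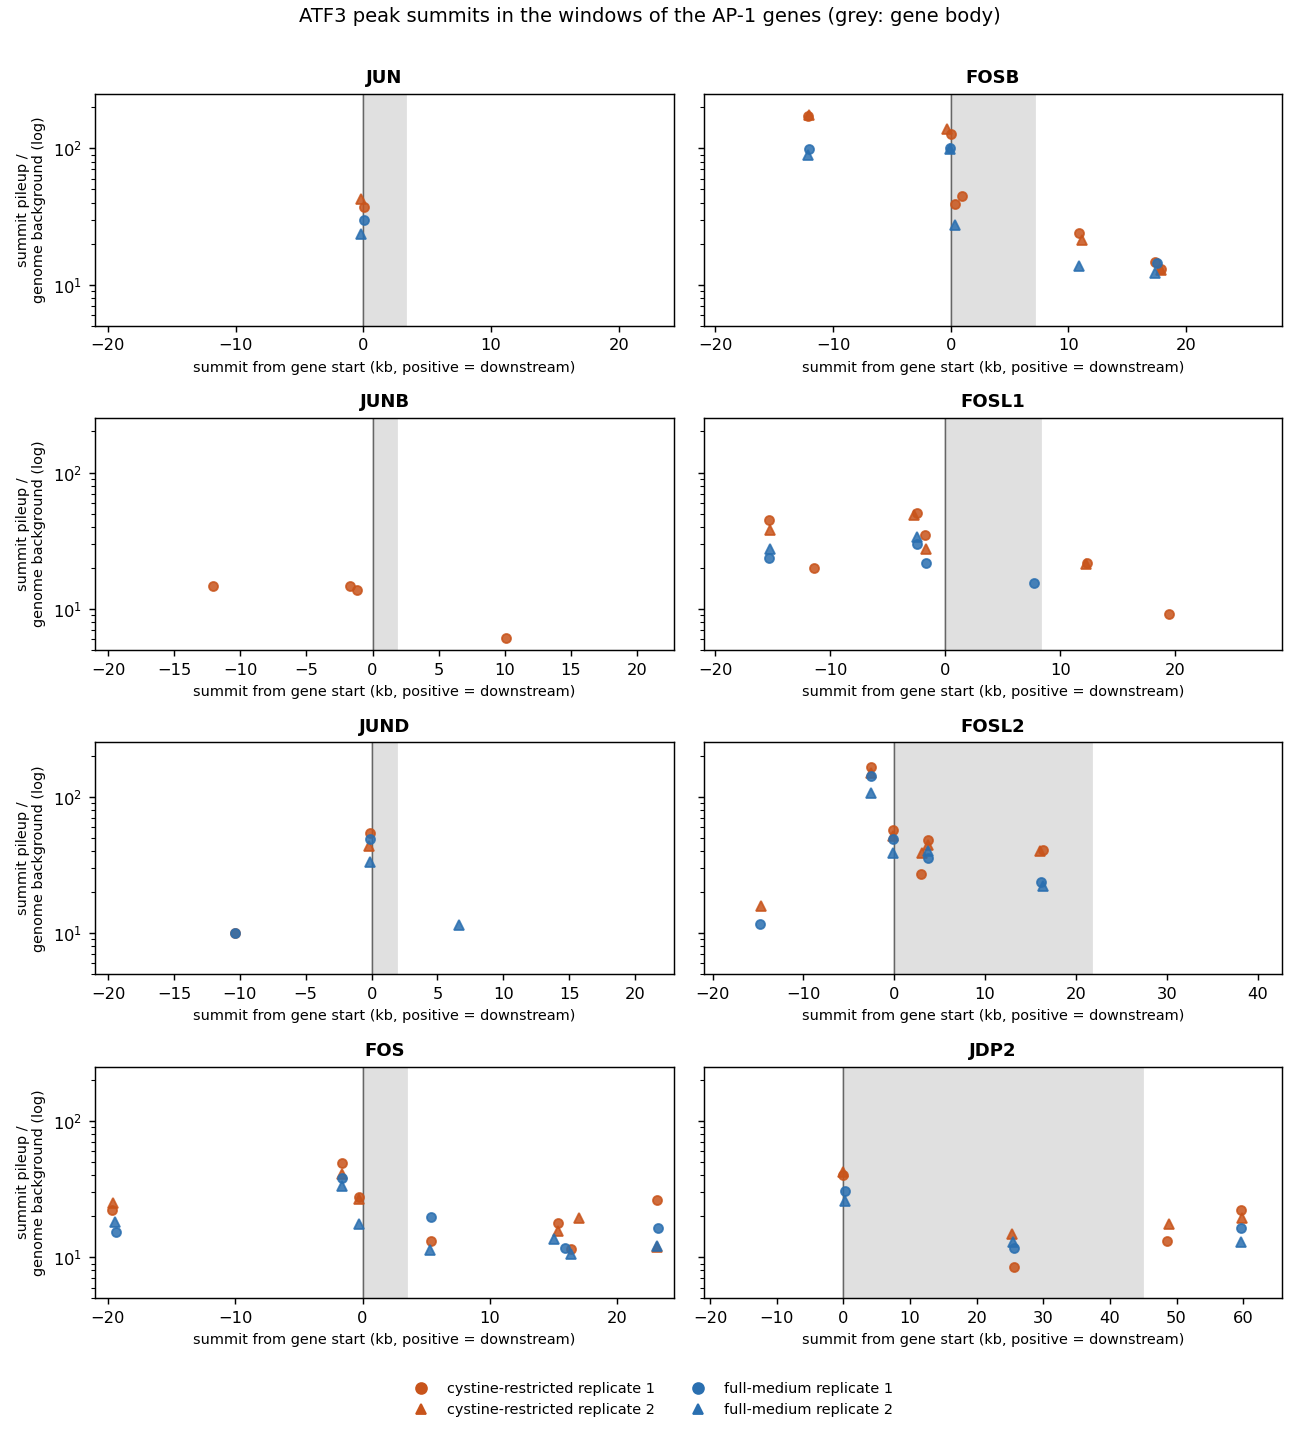
Relative pileup of every listed peak summit (log axis) against its distance from the gene start in kb, with the gene body in grey, for the 8 genes; orange marks cystine-restricted and blue full-medium libraries, circles replicate 1 and triangles replicate 2. The summits above 100 belong to FOSB and FOSL2, and the JUNB panel holds 4 points, all of cystine-restricted replicate 1.

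Across the 16 regions present in all libraries, 8 rose and none fell under limma (50.0%, against 43.2% of all such regions called higher and 0.407% called lower). The 8 were 2 regions each at FOSB, FOSL1 and FOSL2 and the start regions of JUN and JDP2, while no FOS or JUND region passed. The media did not overlap, with every cystine-restricted value higher, at 13 of 16 regions, against 72.8% of all regions, and with every cystine-restricted value lower at 0 of 16, against 2.38%. The median log2 difference was 0.46, with a range of −0.14 to 0.89, against 0.53 for all 10331 regions. Among all differences, the FOSB region 12.1 kb upstream stood at percentile 82.4 and the JDP2 intragenic region at percentile 4.2. When each library was centred on the median of the common regions, which removes that shift, 0 of the 16 regions passed limma, against 4.96% of all regions higher and 4.28% lower, and 2 had an unadjusted p under 0.05. Without full-medium replicate 1, 10 of 16 passed, against 47.6% of all regions, and with absent peaks set to the lowest listed pileup 5 of the 16 passed, against 25.0% of the regions then tested. The count also rests on single libraries: it was 1 without cystine-restricted replicate 1, against 18.1% of all regions, and 3 without cystine-restricted replicate 2, against 26.7%. Of the 8 calls, the FOSB upstream region held in 4 of the 4 fits with 1 library left out, and the FOSL1 region 15.3 kb upstream and the FOSL2 region 16.4 kb downstream in 3. The FOSB start region and the FOSL1 region 2.5 kb upstream held in 2, and the JUN and JDP2 start regions and the FOSL2 region 2.6 kb upstream in 1. With the same centring, the differences ran from −0.71 at the JDP2 intragenic region (adjusted p = 0.14) to 0.32 at the FOSB upstream region (adjusted p = 0.081), the JUN start region was at 0.01 and the FOSB and JDP2 start regions and the FOSL2 region 2.6 kb upstream turned below 0.

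**Figure D3:**
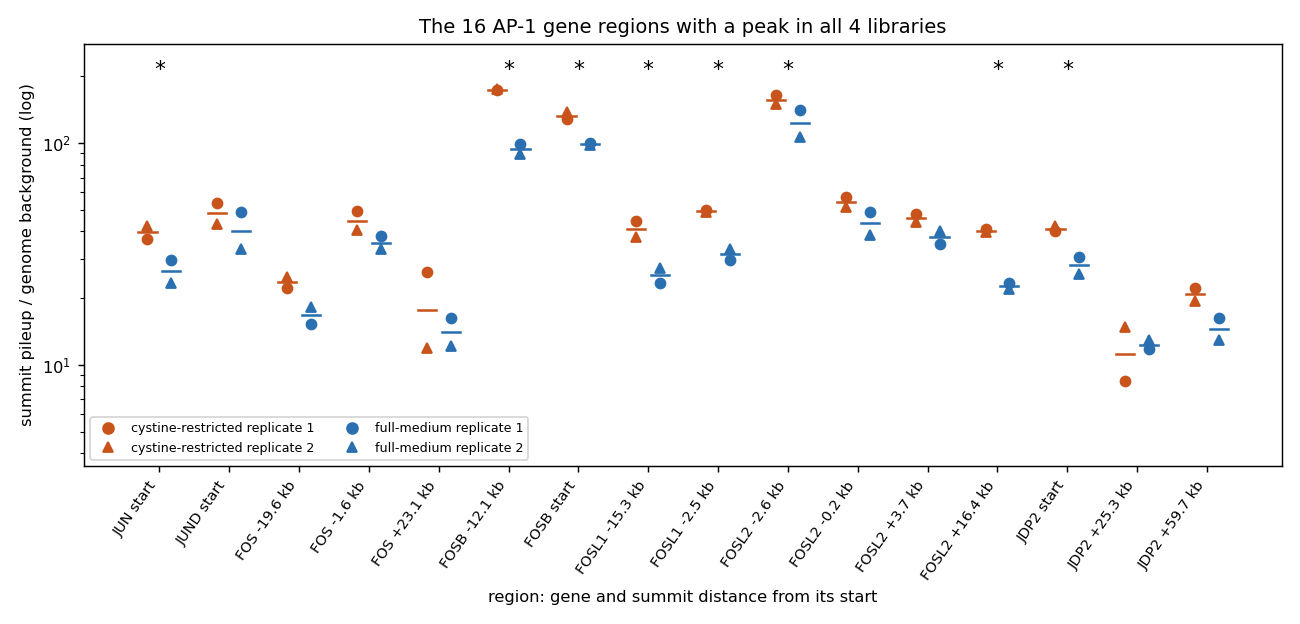
Relative pileup (log axis) of the 16 AP-1 gene regions with a peak in all 4 libraries, cystine-restricted in orange to the left and full-medium in blue to the right; circles are replicate 1, triangles replicate 2, bars the mean on the log scale, and asterisks mark an adjusted p under 0.05 by limma. The FOSB region 12.1 kb upstream shows the widest gap between media among those marked, 173.37 and 175.28 against 99.41 and 89.52.

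**Figure D4:**
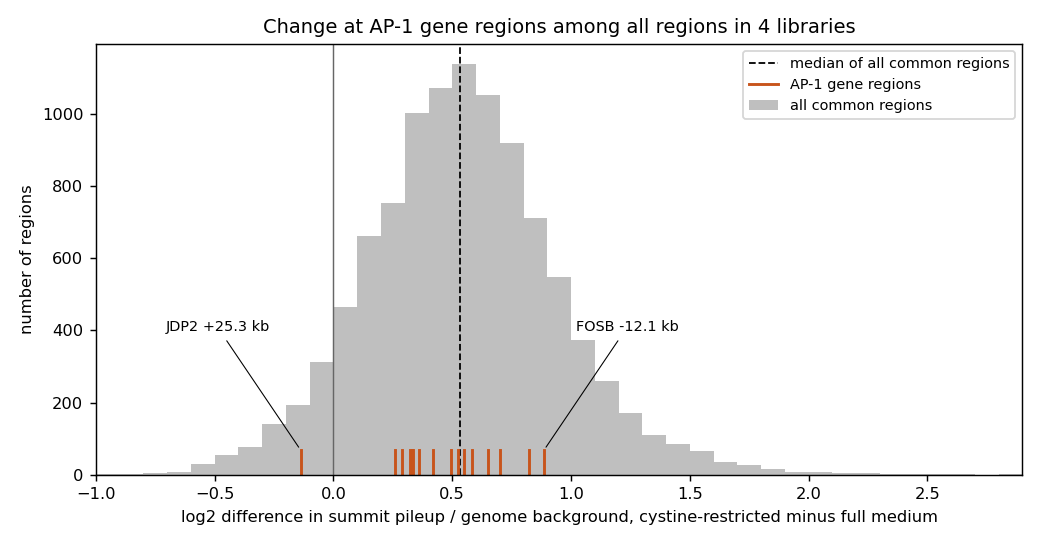
Number of regions (of 10331 present in all 4 libraries) by log2 difference in relative pileup, cystine-restricted minus full medium, in grey, with the 16 AP-1 gene regions as orange ticks and the median of all regions as a dashed line. The ticks lie between −0.14 (JDP2, 25.3 kb downstream) and 0.89 (FOSB, 12.1 kb upstream), on both sides of the median of 0.53.

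The number of tags in the 10 kb around a summit, which the deposited local background gives, had a higher mean relative to the genome background under cystine restriction at 16 of 16 regions, against 90.6% of all regions. The difference was 0.10 to 0.58 on the log2 scale with a median of 0.40, against 0.37 for all regions. The media did not overlap in this measure at 13 of the 16, against 72.5% of all regions. The media overlapped at the FOS region 19.6 kb upstream, which had the smallest difference. The values there were 3.18 and 2.46 times the genome background under cystine restriction and 2.60 and 2.62 times in full medium. Around the JUN summit it was 290 and 235 tags under cystine restriction and 195 and 191 tags in full medium. At the FOSL2 region that ended 16 bp upstream of the start it was the highest of the 16. The values were 19.14 and 17.86 times the genome background (1656 and 1291 tags) against 15.13 and 12.55 times (1116 and 1103 tags). With the authors' fold, the pileup over this local background, in place of the relative pileup, 0 of 16 regions passed limma (1 with an unadjusted p under 0.05), against 4.96% of all regions higher and 0.029% lower, and the median log2 difference was 0.15. The tags at the summit are themselves part of the 10 kb, so the measures are not independent.

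Summit positions were compared in the same way. At the 16 regions, the summits of the 4 libraries spanned between 1 and 326 bp, with a median of 87.5 bp, against a median of 124 bp at all regions in 4 libraries. The narrowest spans were those of FOSL2 at 3.7 kb downstream and 2.6 kb upstream, followed by FOSB at 12.1 kb upstream, FOS at 1.6 kb upstream with 21 bp and the JUND start region with 29 bp. Wide spans were found both at gene starts and away from them. The summits fell on either side of the start at JUN with a span of 218 bp, JDP2 with 290 bp and FOSB with 319 bp. Away from starts, the span was 326 bp at the FOSL1 region 2.5 kb upstream, 311 bp at the FOS region 19.6 kb upstream, 303 bp at the JDP2 intragenic region and 261 bp at the FOSL2 region 16.4 kb downstream.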

How the data were processed

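ATF3 CUT&Tag peak lists of 2 cystine-restricted and 2 full-medium SW480 libraries were used. The submitters' processing notes name MACS2 (2.2.7.1), BWA (0.7.17), fastp (0.19.7), bcl2fastq (2.17) and build hg19, with no options. The authors' deposited peaks carry a summit offset, a fold enrichment, −log10 values of p and of q, and a score, which is 10 times the −log10 q. All are relative to the peak's own library. The fold is the ratio of summit pileup to local background, with the same small constant added to each. Whole pileups and backgrounds were recovered from the fold and −log10 p, and matched the deposited −log10 p within 0.00212% for every peak. The lowest background of a list was taken as its genome background, and local backgrounds above it were whole multiples of 0.015 (150 bp tags over 10 kb; tolerance 0.1 of a step) for 100% of cases.

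Peaks on chromosomes 1 to 22 and X were merged, the highest pileup per library and region was used, and log2(pileup/genome background) was fitted with limma 3.58.1 (R 4.3.3, trended eBayes, Benjamini-Hochberg, adjusted p threshold 0.05) over all 10331 regions with a peak in all 4 libraries, with no replicate block. Regions absent from a list have no value and were not tested. Merging was checked with bedtools 2.31.1, and recovery and limma were tested on simulated data. Scripts ran on pandas 2.3.3, scipy 1.17.1 and numpy 2.4.6 under Python 3.11.15. The text names all 8 genes, per gene the region nearest the start and the one with the highest mean, each gained region and the called ones; weaker regions were added as a full account of the members. The members, lists, tests and motifs were chosen with earlier results of these data known. AP-1 partner and kinase genes outside the 8 windows were planned only for an hg19 annotation and were not analysed here, nor was region sequence.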

Additional observations from a re-analysis of the deposited data

How the results depend on the processing

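The ratio of peak numbers in the windows was 1.36; it was 1.02 with equal numbers of top peaks per library, which fixes the list lengths, and 1.15 to 1.57 with 1 library left out (added after seeing the data). The 4 gained regions became 2 when the −log10 q had to reach 5 (5.88%, against 16.2% of all regions) and 2 with equal numbers (5.88%, against 6.59%), where 2 were lost (5.88%, against 2.69%). Without 1 library 5 to 12 were gained (12.8% to 29.3%, against 17.8% to 40.8% of all regions), fewer libraries being required. In the same settings 0 to 2 were lost (0% to 5.88%, against 0.944% to 6.57% of all regions). The replicate block gave 16 gained (41.0%, against 54.3%) and 3 lost (7.69%, against 7.29%) within pair 1, and 7 gained (22.6%, against 45.0%) and 5 lost (16.1%, against 13.1%) within pair 2, of regions listed in that pair. It left the 16 limma calls as they were; same-numbered libraries deviated with a correlation of 0.01, and 2 numbers are too few to pair them. In place of 8 regions called higher, 0 of 16 passed with centring (median difference −0.11) and 0 with the authors' fold (0.15), 4 without the variance trend (37.2% of all regions) and 5 with absent peaks set to the lowest listed pileup (25.0%). The calls lost in both of these were the JUN start (adjusted p = 0.067 and 0.073, limma), the JDP2 start (0.072 and 0.071) and FOSL2 2.6 kb upstream (0.23 and 0.095), and the FOSB start was lost without the trend (0.14). Leaving out 1 library gave 1 to 10 called and medians of 0.40 to 0.55: 1 without cystine-restricted replicate 1 (18.1% of all regions), 3 without replicate 2 (26.7%), 10 without full-medium replicate 1 (47.6%) and 5 without full-medium replicate 2 (29.4%). The FOSB region 12.1 kb upstream passed in each of these 4, in which the lone library of a medium is assumed to vary like the other medium. Without full-medium replicate 1, JUND (adjusted p = 0.041, limma) and FOSL2 0.2 kb upstream (0.049) passed as well.

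With centring the log2 difference turned below 0 at FOS (−0.072 at 19.6 kb upstream, −0.24 at 1.6 kb upstream, −0.23 at 23.1 kb downstream), FOSL2 (−0.21, −0.25 and −0.28 at 2.6 and 0.2 kb upstream and 3.7 kb downstream), JDP2 (−0.018 at the start, −0.046 at 59.7 kb) and the starts of FOSB (−0.15) and JUND (−0.31). With the authors' fold it did so at FOS 1.6 kb upstream (−0.054), FOSL2 (−0.006, −0.089 and −0.15 at the same 3 places) and JUND (−0.044). Leaving out 1 library gave −0.23 to 0.90 at FOS 23.1 kb downstream, −0.54 to 0.26 at JDP2 25.3 kb downstream and −0.013 to 0.54 at JUND. For the other changes the cause was not tested. A pileup of 8 tags has an exact Poisson 95% interval of 3.5 to 15.8 tags.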
